A study of Mus musculus with 21 samples.

Results

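The genes described here encode the nuclear part of respiratory complexes III and IV and of ATP synthase, with cytochrome c. They were taken by symbol: every gene whose symbol starts with Uqcr, Uqcc, Atp5 or Cox followed by a digit, with Cyc1 and Cycs and without pseudogenes. The rule gave 56 genes over the 3 deposited tables, once 4 copies were left out. It found 54 among the 15945 genes of the table of bone marrow eosinophils and progenitors, 56 among the 22274 genes of the table of cytokine-treated eosinophils, and 54 among the 16645 genes of the table of cultured eosinophils, and 54 of them are in all 3 tables. The 4 copies were rows of the table of cytokine-treated eosinophils, labelled Cycs, Cox5b, Cox17 and Atp5mg. Their identifiers belong to Gm10053, Gm11273, Gm21987 and Gm5426. The 56 genes kept comprise 12 genes of complex III, the cytochrome c gene Cycs, 26 genes of complex IV and 17 genes of ATP synthase.

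Complex III passes electrons from ubiquinol to cytochrome c, and complex IV passes them from cytochrome c to oxygen. Both pump protons, and ATP synthase uses the proton gradient to make ATP. Iron runs through this part of the chain: complex III carries hemes and an iron-sulfur cluster, cytochrome c carries a heme, and complex IV carries heme A beside copper. Eosinophils are granulocytes of type 2 immunity that arise in bone marrow under IL-5, and the study's title asks how iron and mitochondrial metabolism bear on their differentiation.

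Poly(A) RNA of wild-type mice was measured in 7 groups. The labels give the eosinophils of the first table as bone marrow eosinophils (EOS, n = 3), set against granulocyte-macrophage progenitors from bone marrow (GMP, n = 3), the cells from which granulocytes descend. In the second table eosinophils treated with IL-4, GM-CSF and a further interleukin (T2, n = 3) were set against untreated resting eosinophils (n = 3). That interleukin is labelled IL-33 in T2 replicate 1, IL-34 in replicate 2 and IL-35 in replicate 3, and they were treated here as a single group. The third table held bone marrow-derived eosinophils (BMDEs), grown for 4 days with SCF and FLT3 ligand at 100 ng/mL and then with IL-5 at 10 ng/mL. From day 4 they had the iron chelator deferoxamine at 5 µM (DFO, n = 3), the iron source ferric ammonium citrate at 10 µM (FAC, n = 4) or neither (CON, n = 2), and RNA was taken on day 7. The same culture text is given for every sample, so how the cells of the first and second tables were isolated is not stated, and neither age nor sex of the mice is given. Nothing says that the libraries of a group came from separate animals or cultures, so p-values measure the spread between these libraries only.

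A library of the EOS and GMP table held 25857382 to 28992668 counts in total, a T2 or resting library 16073573 to 18995878, and a BMDE library 16809789 to 17991878. The members together took 0.809% to 1.35% of the counts in EOS, 0.878% to 1.08% in GMP, 0.287% to 0.318% in T2, 0.284% to 0.290% in resting eosinophils, 0.513% to 0.520% in DFO, 0.569% to 0.816% in FAC and 0.577% to 0.588% in CON. A pair of libraries stood apart, EOS replicate 3 and FAC replicate 6, and values without them are given beside the results they move. In EOS the neutrophil markers summed to 33284, 72266 and 198213 CPM (TMM-normalised counts, relative to the library total) in replicates 1, 2 and 3, against 77.6 to 110 CPM in GMP, and all 12 were higher on average in EOS. The 10 eosinophil markers summed to 20125 to 36901 CPM in EOS, against 94.8 to 254 CPM in GMP, and the 8 progenitor markers to 39712 to 62895 CPM in EOS, against 51436 to 61720 CPM in GMP. Of the 8 progenitor markers 2 were higher and 2 lower in EOS at an adjusted p under 0.05 (edgeR), with log2 fold changes from -3.37 to 2.04. All 8 erythroid, 6 B cell and 6 mast cell and basophil markers tested were higher by that test. So were 3 of 6 T and NK cell markers, and monocyte and macrophage markers were split, 6 higher and 4 lower. The EOS libraries thus held eosinophil and neutrophil message side by side with markers of other marrow cells, and the progenitor sum does not speak for each gene. In bulk RNA, fewer cells of a type and less RNA per cell cannot be told apart.

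Promoters are shown for the 3 members that moved furthest with T2 cytokines among those with more than a few counts: Cycs and Cox10, which rose, and Cox7a2l, which fell. Of the 54 members shared by all tables, 42 had a window of 250 bases before and 50 bases after the start in the RefSeq promoter table (GRCm38.p6), which covers 27025 genes. The windows below run 280 bases on the minus strand, 250 before the start and 30 from it, written 5′ to 3′ with motif matches in capitals. For Cycs, whose gene lies at chr6:50562563-50566538 in GENCODE M21 (GRCm38), the window is chr6:50566540-50566819, with capitals at YY1 and NRF1 matches. This whole window, with its 30 bases from the RefSeq start, lies upstream of the gene as GENCODE draws it. For Cox10, at chr11:63962627-64079468, it is chr11:64079443-64079722, with capitals at ETS and YY1 matches. For Cox7a2l, at chr17:83501918-83517330, it is chr17:83514304-83514583, which lies inside the gene as GENCODE draws it, and none of the 6 motifs searched was matched.
Cycs: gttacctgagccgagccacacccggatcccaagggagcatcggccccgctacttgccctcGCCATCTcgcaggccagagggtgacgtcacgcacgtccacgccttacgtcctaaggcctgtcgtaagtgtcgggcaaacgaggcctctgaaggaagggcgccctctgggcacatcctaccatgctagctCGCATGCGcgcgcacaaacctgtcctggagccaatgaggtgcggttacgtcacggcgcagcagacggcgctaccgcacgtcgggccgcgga
Cox10: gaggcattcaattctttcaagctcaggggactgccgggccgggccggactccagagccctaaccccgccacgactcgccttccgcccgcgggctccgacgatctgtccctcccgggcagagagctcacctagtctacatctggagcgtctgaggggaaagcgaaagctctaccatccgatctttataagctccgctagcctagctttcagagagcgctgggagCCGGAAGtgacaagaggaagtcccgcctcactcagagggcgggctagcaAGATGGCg
Cox7a2l: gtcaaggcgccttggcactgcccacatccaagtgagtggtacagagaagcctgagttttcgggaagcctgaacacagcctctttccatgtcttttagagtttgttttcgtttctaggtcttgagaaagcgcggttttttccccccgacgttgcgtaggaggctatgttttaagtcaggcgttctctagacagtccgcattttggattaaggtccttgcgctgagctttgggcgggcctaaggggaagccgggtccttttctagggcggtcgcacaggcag

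The motifs were searched on both strands of the whole window: GCATGCG for NRF1, a transcription factor of nuclear genes for mitochondrial proteins, CCGGAAG for the ETS family with GABPA, AGATGGC for YY1, TTC and GAA with 4 bases between them for STAT6, the same with 3 bases between them for STAT5, and CACGTG, the E-box that MYC can bind. In Cycs the NRF1 letters matched on both strands at overlapping positions. The NRF1 motif was in 8 of 42 members (19.05%), against 4.02% of all windows, and the ETS motif in 16 of 42 (38.1%), against 9.93%. The YY1 motif was in 8 members (19.05%), against 7.31%, the E-box in 5 (11.9%), against 8.09%, the STAT6 motif in 4 (9.52%), against 8.01%, and the STAT5 motif in 3 (7.14%), against 9.55%. A match says only that the letters are there.

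Most members rose in eosinophils given T2 cytokines. Cycs rose by 1.86 and the heme A synthesis gene Cox10 by 1.82 on the log2 scale, and Cox5a, Atp5g1 and the catalytic ATP synthase subunit Atp5b rose with them. Cox7a2l, which links complexes III and IV in supercomplexes, fell. Of 51 members tested, 33 were called higher and 5 lower (edgeR quasi-likelihood test, Benjamini-Hochberg adjusted p under 0.05). Among all 11345 genes tested 76.1% were called, 38.2% higher and 37.9% lower, so the number of members called is near the background and their split between directions is not. The median log2 fold change of the members was 0.35, against -0.01 for all genes. Without overlap between T2 and resting libraries, 31 members were higher and 6 lower, against 38.8% and 38.98% of all genes. Cox4i2, Cox8b and Cox8c had 0 counts in all 6 libraries, and the tissue isoforms Cox6a2 and Cox6b2 had too few to be tested.

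**Figure D1:**
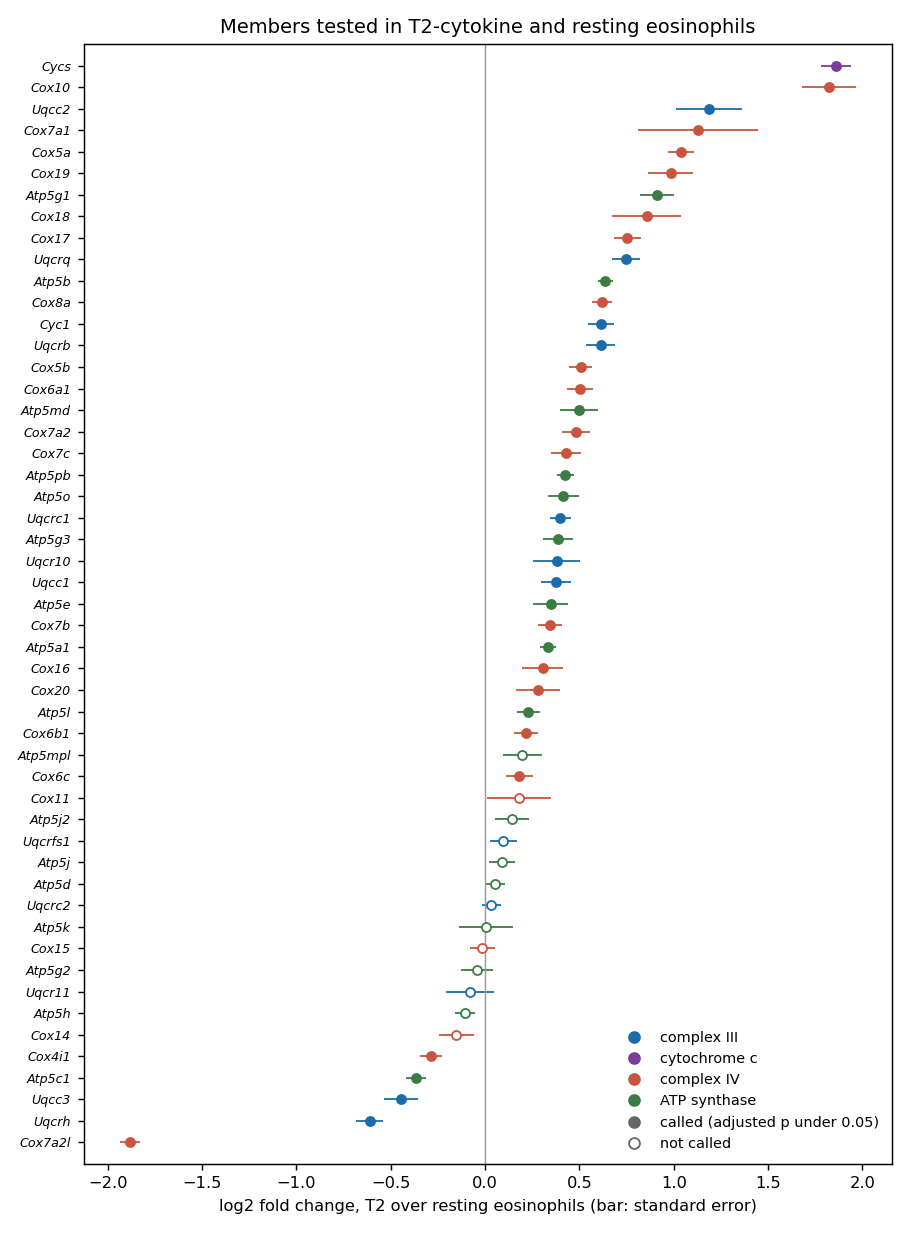
Log2 fold change of T2 over resting eosinophils for the 51 members tested, with its standard error as a bar, sorted by size and coloured by complex. Filled points were called at an adjusted p under 0.05. Cycs and Cox10 lie above 1.8 and Cox7a2l lies at -1.88.

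Cycs encodes cytochrome c, the heme protein that carries electrons between complexes III and IV and that triggers apoptosis when it leaves mitochondria. It had 57.2, 61.7 and 59.3 CPM in T2 libraries, against 18.8, 15.3 and 15.0 CPM in resting libraries. All T2 libraries lay far above all resting ones, and the log2 fold change was 1.86 (SE 0.08, adjusted p = 3.52e-12, edgeR). The T2 table holds a further row labelled Cycs, the copy Gm10053 at chr19:24875686-24876631, which was left out of the members. Gm10053 had 35.1 ± 3.98 CPM in T2 and 8.38 ± 0.416 CPM in resting eosinophils (SD, n = 3 each), and how reads were split between the gene and the copy is not stated.

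In complex III, 7 of 12 members were called higher and 2 lower. Cyc1, the cytochrome c1 subunit that holds a heme, had 31.0, 31.6 and 34.5 CPM in T2 libraries, against 20.9, 21.7 and 20.8 CPM in resting libraries (log2 fold change 0.62, SE 0.07, adjusted p = 7.7e-07, edgeR). Every T2 library was above every resting one. The Rieske iron-sulfur subunit Uqcrfs1 had 39.1, 36.2 and 36.8 CPM in T2 libraries, against 38.8, 32.9 and 33.2 CPM in resting libraries, groups that overlap (0.10, SE 0.07, adjusted p = 0.23, edgeR). The core subunit Uqcrc1 rose by 0.40 on the log2 scale, whereas its partner Uqcrc2 had a change of 0.03 (SE 0.05, adjusted p = 0.545, edgeR). Among the small subunits Uqcrq rose by 0.74 and Uqcrb by 0.61. The hinge protein Uqcrh went the other way: it had 50.1, 49.3 and 54.5 CPM in T2 libraries, against 73.0, 74.5 and 87.9 CPM in resting libraries (-0.61, SE 0.07, adjusted p = 1.19e-06, edgeR). Uqcrh has processed pseudogenes in GENCODE M21, and how reads were shared with them is not stated. The assembly factors were split as well, with Uqcc2 higher by 1.19 (adjusted p = 1.56e-05, edgeR) and Uqcc1 by 0.38, and Uqcc3 lower, at -0.45.

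In complex IV, 10 of the 12 subunits tested were called higher and 2 lower, and 6 of 9 assembly factors were called higher and none lower. Cox10, the farnesyltransferase that makes heme O on the way to heme A, had 11.2, 12.7 and 10.6 CPM in T2 libraries, against 3.37, 2.86 and 3.53 CPM in resting libraries (log2 fold change 1.82, SE 0.14, adjusted p = 7.35e-09, edgeR). The groups did not overlap. Cox15, which acts after Cox10 in the same pathway, had 37.5, 42.0 and 41.8 CPM in T2 libraries, against 43.5, 40.8 and 38.3 CPM in resting libraries (-0.01, SE 0.07, adjusted p = 0.851, edgeR). The message for the first step of heme A synthesis thus rose, and that for the second did not pass the test. Exons of Cox10 overlap an antisense gene, and the strand setting of the counting is not stated. Cox17, a copper chaperone, had 100.0, 93.6 and 97.8 CPM in T2 libraries, against 51.0, 57.6 and 64.4 CPM in resting libraries (0.75, adjusted p = 7.79e-08, edgeR), and Cox19 rose by 0.98. Cox18, which inserts the mitochondrially made subunit 2, rose by 0.86.

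Among the structural subunits Cox5a, a nuclear subunit close to the catalytic core, had 65.1, 70.3 and 78.3 CPM in T2 libraries, against 34.7, 35.7 and 33.6 CPM in resting libraries (log2 fold change 1.04, SE 0.07, adjusted p = 1.06e-09, edgeR). Its groups lay far apart. Cox8a (0.62), Cox5b (0.51), Cox6a1 (0.50), Cox7a2 (0.48), Cox7c (0.43), Cox7b (0.34), Cox6b1 (0.22) and Cox6c (0.18) rose by less on the log2 scale, and the call of Cox6c was lost when resting replicate 1 or 2 or T2 replicate 3 was left out. Cox7a1, the isoform of heart and skeletal muscle, was low in both groups, at 1.98 ± 0.235 CPM in T2 and 0.905 ± 0.313 CPM in resting eosinophils (SD, n = 3 each), and rose by 1.13. Cox4i1, a subunit that joins the complex early in its assembly, fell, with 96.7, 92.6 and 103 CPM in T2 libraries, against 122, 124 and 111 CPM in resting libraries (-0.29, SE 0.06, adjusted p = 0.000337, edgeR).

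Cox7a2l had 36.9, 37.0 and 38.2 CPM in T2 libraries, against 136, 135 and 142 CPM in resting libraries (log2 fold change -1.88, SE 0.05, adjusted p = 2.2e-14, edgeR). It was the only member that fell by more than 1 on the log2 scale, and its libraries agreed closely within each group. Its relative Cox7a2, which sits in complex IV itself, rose, as given above. Per length, in the deposited FPKM, Cox7a2l lay below Cox7a2 in T2 cells, at 32.2 ± 1.05 for Cox7a2l and 45.9 ± 3.71 for Cox7a2, and above it in resting cells, at 138 ± 3.39 for Cox7a2l and 38.2 ± 1.297 for Cox7a2 (SD, n = 3 each). The libraries of the pair did not overlap in either group.

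**Figure D2:**
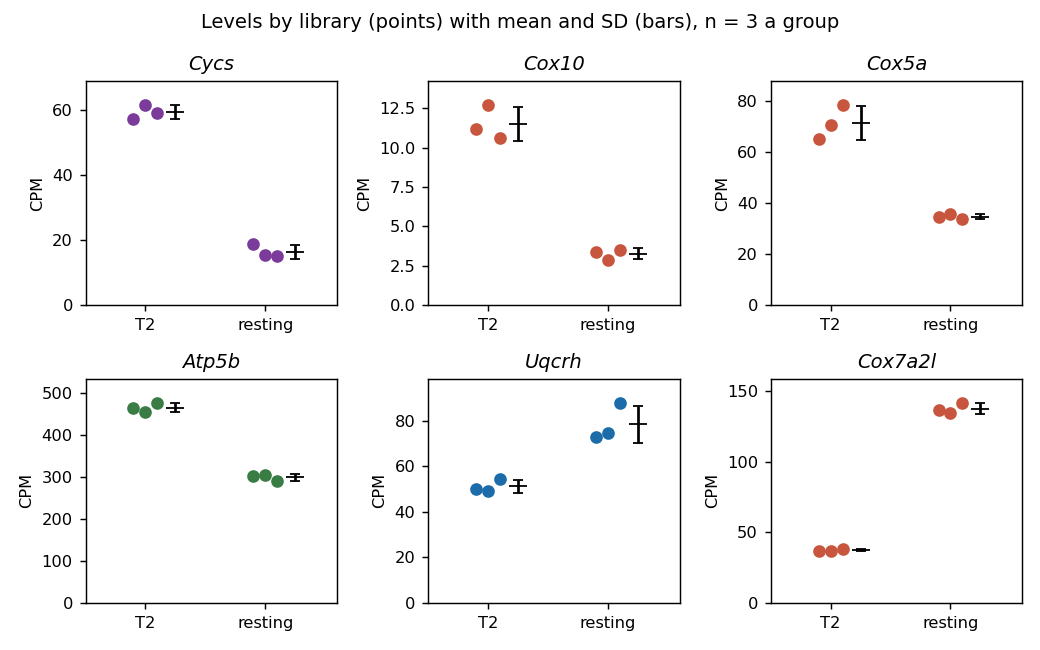
CPM of Cycs, Cox10, Cox5a, Atp5b, Uqcrh and Cox7a2l in each T2 library (left) and each resting library (right), points for libraries and bars for mean and SD, n = 3 each. The first 4 genes are higher in every T2 library and the last 2 are lower in every T2 library.

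In ATP synthase, 9 of 17 members were called higher and 1 lower. Atp5b had 465, 456 and 477 CPM in T2 libraries, against 304, 305 and 289.8 CPM in resting libraries (log2 fold change 0.64, SE 0.04, adjusted p = 8.57e-10, edgeR). The groups did not overlap. Its partner in the catalytic head, Atp5a1, rose by 0.33 and the epsilon subunit Atp5e by 0.35. The gamma subunit Atp5c1, the rotating shaft, was the member called lower, with 96.3, 96.7 and 105 CPM in T2 libraries, against 125, 126 and 134 CPM in resting libraries (-0.37, adjusted p = 1.17e-05, edgeR). Atp5c1 also has a pseudogene of its name. In the stalk Atp5pb rose by 0.43 and Atp5o by 0.41, and 2 of 5 membrane subunits were called higher, among them Atp5l at 0.23.

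Subunit c, which forms the ring that turns with the proton flow, is made from 3 genes whose mature proteins are the same, Atp5g1, Atp5g2 and Atp5g3. Atp5g1 had 27.6, 28.3 and 31.0 CPM in T2 libraries, against 13.5, 17.1 and 15.6 CPM in resting libraries (log2 fold change 0.91, SE 0.09, adjusted p = 1.28e-07, edgeR). Atp5g3 rose by 0.38, and Atp5g2 had a change of -0.04 (adjusted p = 0.668, edgeR). Atp5g1 made up 26.9%, 27.5% and 25.5% of the counts of the 3 genes in T2 libraries, against 17.2%, 18.8% and 17.4% in resting libraries. The shares did not overlap, and the exact two-sided permutation test over libraries gave p = 0.1, the smallest p that 3 against 3 libraries allow. In bone marrow EOS the share was 52.0% ± 6.53, against 54.9% ± 0.153 in GMP (SD, n = 3 each; exact p = 0.4). In BMDEs it was 23.0% ± 0.107 in DFO (n = 3), 21.7% ± 1.49 in FAC (n = 4) and 22.7% ± 0.162 in CON (n = 2), with exact permutation p-values of 0.2 for DFO against CON, where 0.2 is the smallest possible, 0.667 for FAC against CON and 0.229 for DFO against FAC.

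Summed over members, complex III reached 470.6 ± 21.8 CPM in T2 and 416 ± 9.94 CPM in resting eosinophils, complex IV 1041 ± 39.2 CPM in T2 and 902 ± 7.34 CPM in resting, and ATP synthase 1659 ± 72.2 CPM in T2 and 1333 ± 12.9 CPM in resting (SD, n = 3 each). Per length, in the deposited FPKM, Cox8a was the highest complex IV subunit, at 314 in T2 and 238 in resting eosinophils, and Atp5b the highest of ATP synthase, at 226 in T2 and 168 in resting. In FPKM 32 of the 51 members had a higher mean in T2 and 19 a lower one, against 4367 genes higher and 6978 lower over all genes tested. With limma on log2 (FPKM + 0.5), 21 members were called higher and 12 lower, where 26.9% of all genes were called higher and 45.5% lower and the median change of all genes was -0.18, so the split of the calls moves with the scaling. On that scale Atp5g3, Atp5o, Atp5e, Atp5l, Cox7b, Cox7c, Cox6b1 and Uqcc1 were not called, Cox6c was at -0.035, and Cox15, Atp5g2 and Uqcrc2 (-0.18, adjusted p = 0.00476, limma) were called lower. With upper-quartile factors 27 members were called higher and 7 lower, against 32.5% and 43.4% of all genes. Eosinophil markers summed to 5914 to 6052 CPM in T2 libraries, against 7339 to 7676 CPM in resting libraries, with Ear6 and Siglecf higher and the other 7 of 9 lower. Neutrophil markers summed to 1275 to 1332 CPM in T2 libraries, against 2484 to 2708 CPM in resting libraries, with 2 of 12 called higher and 7 lower. Mast cell and basophil markers summed to 475 to 523 CPM in T2 libraries, against 94.6 to 104 CPM in resting libraries, with 2 of 6 called higher and 3 lower. Monocyte and macrophage markers summed to 897 to 943 CPM in T2 libraries, against 626 to 662 CPM in resting libraries, with 2 of 9 called higher and 3 lower. The part of these shifts in the changes of the members was not tested.

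The rest of the pathway moved less evenly. Of 36 subunits of complex I, 13 were called higher and 5 lower, with a median log2 fold change of 0.08. Of 4 subunits of complex II, 1 was higher and 1 lower. Among 30 other assembly factors and small subunits of complexes III, IV and ATP synthase that the symbol rule does not take, 10 were higher and 9 lower. The 13 mitochondrially encoded subunits, held by the T2 table, had a median of -0.07, and mt-Nd1 and mt-Nd2 were called higher and mt-Atp6 and mt-Nd6 lower. None of the mitochondrially encoded subunits of complexes III and IV was called. Of 12 regulators of mitochondrial gene expression tested, 7 were higher and 2 lower. Pprc1, a coactivator of NRF1 in the family of PGC-1, had 76.2 ± 3.15 CPM in T2 and 9.47 ± 0.662 CPM in resting eosinophils (log2 fold change 3.01, n = 3 each), Gabpb1, a partner of GABPA, rose by 0.92 and Nrf1 by 0.37. Yy1 fell, at -0.45, and Tfam, which packs mitochondrial DNA, had a change of 0.09 and was not called. Myc rose by 1.47.

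With chelated iron most members had slightly lower counts in BMDEs, and Cox10 alone passed the test. With DFO 48 of 53 members tested had a negative log2 fold change against CON, with a median of -0.21, against 0.00 for all genes. For transcripts from 500 to 1000 bases, the class of 27 members, the medians were -0.22 for members and -0.07 for all genes. Cox10 fell, and none of the 53 was called higher. Among all 12607 genes 11.6% were called, 6.46% higher and 5.12% lower, so the count of members is below the background. An unadjusted p under 0.05 was reached by 6 members, where 26.02% of all genes reached it. In 43 members every DFO library was below both CON libraries and in 3 every one was above, against 32.9% and 32.8% of all genes. With 2 CON libraries the shared fit of the 3 arms draws its spread mostly from the other arms.

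Cox10 had 23.6, 19.4 and 21.3 CPM in DFO replicates 9, 11 and 12, against 28.5 and 27.8 CPM in CON libraries (log2 fold change -0.39, SE 0.10, adjusted p = 0.0285, edgeR). It was lower in 3 of 3 DFO libraries. The call was lost when either CON library, DFO replicate 11 or DFO replicate 12 was left out, with adjusted p-values from 0.0968 to 0.184, and its change then ran from -0.32 to -0.41. Cox15 had 49.0, 50.2 and 50.6 CPM in DFO libraries, against 55.3 and 58.2 CPM in CON libraries (-0.19, SE 0.19, adjusted p = 0.585, edgeR). Both genes of heme A synthesis were lower in every DFO library. In the shared fit only the change of Cox10 passed the test, and Cox15 was called lower too without FAC replicate 6, on the DFO and CON libraries alone (adjusted p = 0.00489, edgeR) and with length and GC content in the fit (-0.30, adjusted p = 0.0378, edgeR).

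The messages for the heme and iron-sulfur proteins of complex III and for cytochrome c were also low in every DFO library without passing the test. Cyc1 had 71.0, 69.0 and 69.2 CPM in DFO libraries, against 80.5 and 85.2 CPM in CON libraries (log2 fold change -0.25, adjusted p = 0.164, edgeR). Uqcrfs1 had 73.6, 66.3 and 71.1 CPM in DFO libraries, against 81.1 and 83.9 CPM in CON libraries (-0.23, adjusted p = 0.255, edgeR). Cycs had 101, 97.7 and 96.4 CPM in DFO libraries, against 116 and 118 CPM in CON libraries (-0.25, adjusted p = 0.257, edgeR). Members whose proteins carry no iron were low in the same libraries. Atp5b had 714, 705 and 711 CPM in DFO libraries, against 833 and 834 CPM in CON libraries (-0.23, SE 0.07, adjusted p = 0.052, edgeR). All 17 members of ATP synthase had a negative change with no overlap of the libraries. Atp5a1 was at -0.19, Atp5g3 at -0.37, Uqcrq at -0.40 and Cox6c at -0.48, none called.

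A few members did not share this direction. Cox6a2, the isoform of heart and skeletal muscle, had 8.87, 6.26 and 8.29 CPM in DFO libraries, against 3.56 and 3.90 CPM in CON libraries (log2 fold change 1.06, SE 0.33, adjusted p = 0.0678, edgeR). Its exons overlap those of Itgad, an integrin gene on the other strand, and with no strand setting given the reads of the pair cannot be told apart. Cox14, a complex IV assembly factor, was at 0.30, Uqcc3 at 0.19 and Cox7a2l at 0.04, none called, and Cox7a2l turned to -0.03 when CON replicate 1 was left out.

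FAC replicate 6 entered the shared fit as well, and it had 8862 CPM over all members, against 6529, 5810 and 6317 CPM in FAC replicates 5, 7 and 8. Without it, 30 members were called lower and 2 higher in DFO against CON, where 20.2% of all genes were called lower and 18.9% higher, and Cox10, Atp5b, Cycs, Cyc1 and Uqcrfs1 were among those lower, with changes between -0.24 and -0.40, as was Cox15, at -0.19 (adjusted p = 0.0183, edgeR). The 2 called higher were Cox6a2, with a change of 1.06, and Cox14, with 0.29 (adjusted p = 0.0154, edgeR). In a fit on the DFO and CON libraries alone 39 members were called lower and 2 higher, against 24.3% and 23.7% of all genes. The sizes of the changes hardly moved in either fit, with member medians of -0.21 in both, so the number of members called, and not the size of their change, depended on the FAC libraries in the fit.

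**Figure D3:**
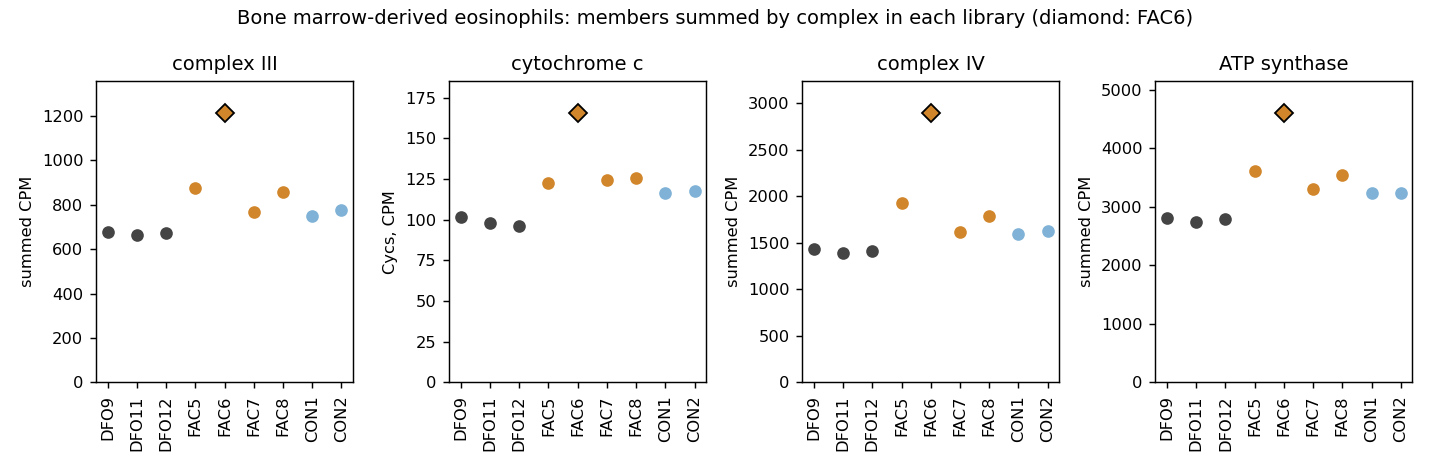
Summed CPM of the members of complex III, Cycs alone, complex IV and ATP synthase in each BMDE library, DFO first, then FAC, then CON, with FAC replicate 6 drawn as a diamond. The DFO libraries are the lowest in every panel and FAC replicate 6 is the highest in every panel.

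Summed over all members the DFO libraries had 4954 ± 61.1 CPM (SD, n = 3) and the CON libraries 5724 ± 43.8 CPM (SD, n = 2). Complex III had 672 ± 7.16 CPM in DFO and 763 ± 18.7 CPM in CON, complex IV 1411 ± 19.4 CPM in DFO and 1609.7 ± 16.8 CPM in CON, and ATP synthase 2772 ± 33.7 CPM in DFO and 3235 ± 7.47 CPM in CON. In the deposited TPM 46 of 53 members had a lower mean in DFO than in CON, where 4854 of the genes tested were lower and 7753 higher. Subunits of complex I shared the direction, with 34 of 36 negative, a median of -0.15 and none called. Cell type markers moved in the same libraries. The eosinophil markers summed to 18627 to 22014 CPM in DFO libraries, against 42536 to 43485 CPM in CON libraries, and all 10 were called lower. The neutrophil markers summed to 16847 to 18917 CPM in DFO libraries, against 9208 to 11017 CPM in CON libraries, with 8 of 12 called higher and 1 lower, and 5 of 8 progenitor markers were called higher. The part of this shift in cell types in the members' change was not tested.

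Iron loading gave changes of the opposite sign that did not pass the test. With FAC 48 of 53 members were positive against CON, with a median log2 fold change of 0.32, against -0.02 for all genes, and none was called by edgeR or by DESeq2. Short transcripts were higher among all genes too. From 500 to 1000 bases, the class of 27 members, the medians were 0.37 for members and 0.14 for all genes. Above 2000 bases they were 0.19 and -0.10. An unadjusted p under 0.05 was reached by 1 member, where 22.5% of all genes reached it, and 6.04% of all genes were called, 1.76% higher and 4.28% lower. In 19 members every FAC library was above both CON libraries and in none were all below, against 17.1% and 19.04% of all genes. All 17 members of ATP synthase were positive. The deposited TPM gave a more even split, with a higher mean in FAC than in CON for 30 of 53 members and a lower one for 23, where 2299 of the genes tested were higher and 10308 lower. In TPM every FAC library was above both CON libraries in 2 members (3.77%) and below both in 9 (17%). Over all genes tested these shares were 4.37% and 39.8%.

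The size of these changes rests on FAC replicate 6. Uqcrq had 75.8, 127, 67.2 and 75.5 CPM in FAC replicates 5, 6, 7 and 8, against 65.3 and 61.2 CPM in CON libraries, and its change of 0.45 (adjusted p = 0.261, edgeR) was 0.21 without replicate 6. Atp5g3 had 232, 352, 198 and 219.6 CPM in FAC libraries, against 190.5 and 185 CPM in CON libraries, with a change of 0.42, or 0.22 without replicate 6. Cox6a1 had 197, 325, 167 and 188 CPM in FAC libraries, against 158 and 158 CPM in CON libraries, with a change of 0.47, or 0.23 without it. In each of these genes the other 3 FAC libraries still lay above both CON libraries. Over all members the median change without replicate 6 was 0.13, and 8 members were then called higher and none lower, where 9.98% of all genes were called higher and 11.7% lower. These were the 3 subunit c genes Atp5g1 (0.19), Atp5g2 (0.21) and Atp5g3 (0.22), the stalk subunit Atp5h (0.25), Cox5a (0.21), Cox5b (0.22), Cox6a1 (0.23) and Uqcrq (0.21). None of the 5 genes that bind or make heme or an iron-sulfur cluster was among them. With only 8 of 53 members called, this does not set those 5 genes apart.

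Those 5 genes can be followed across the arms. Cox10 had 29.7, 27.4, 28.9 and 29.2 CPM in FAC libraries, against 28.5 and 27.8 CPM in CON libraries (log2 fold change 0.03, adjusted p = 0.832, edgeR) and its groups overlapped. Cox15 had 53.0, 33.7, 57.7 and 53.7 CPM in FAC libraries, against 55.3 and 58.2 CPM in CON libraries, with replicate 6 far below the rest (-0.20, adjusted p = 0.496, edgeR). Without it Cox15 was at -0.043. Cyc1 was at 0.09, Uqcrfs1 at 0.21 and Cycs at 0.20, none called, and at 0.026, 0.13 and 0.096 without replicate 6. Cyc1 and Cox15 changed sign when length and GC content were modelled, at -0.06 and 0.02. Atp5b had 889.8, 892, 846 and 892 CPM in FAC libraries, against 833 and 834 CPM in CON libraries (0.08, adjusted p = 0.455, edgeR), a gene in which replicate 6 did not stand out.

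**Figure D4:**
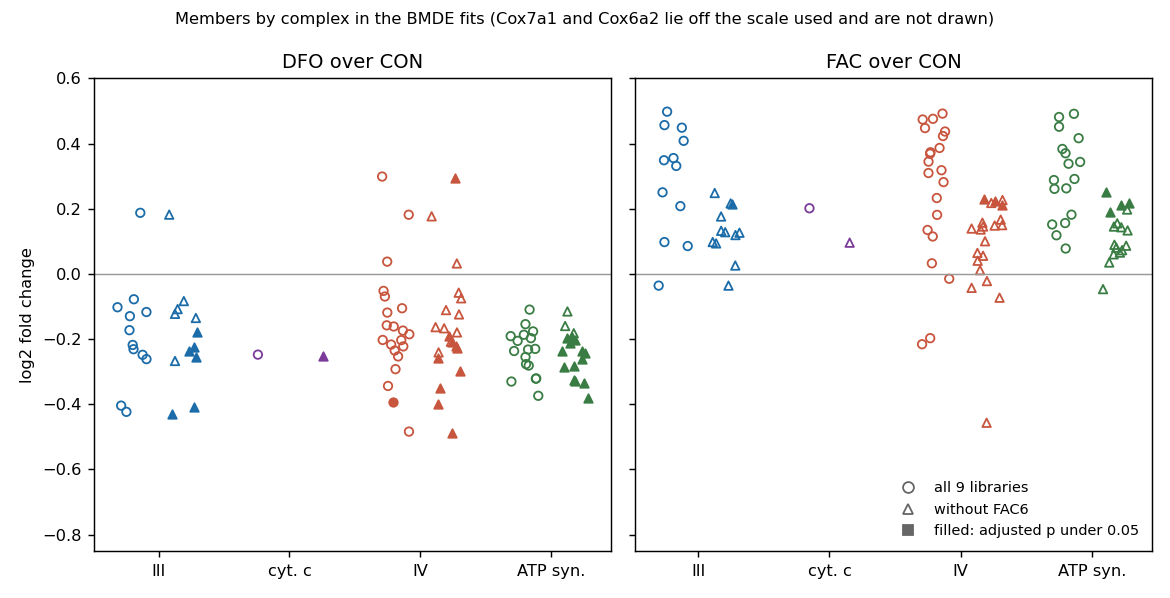
Log2 fold changes of the members by complex for DFO over CON (left) and FAC over CON (right), with all 9 libraries (circles) and without FAC replicate 6 (triangles), filled where the adjusted p was under 0.05. Without replicate 6 the points on the left hardly move, and 32 of the 53 members tested were called, Cox6a2 among them. On the right the median of the members moves to 0.13, against 0.32 with all libraries, with 8 points filled. Cox7a1 and Cox6a2 are not drawn.

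The FAC libraries summed to 6879 ± 1356 CPM over all members (SD, n = 4), against 5724 ± 43.8 CPM in CON. Eosinophil markers summed to 57859 to 70002 CPM in FAC libraries, against 42536 to 43485 CPM in CON libraries, with 5 of 10 called higher, and neutrophil markers to 6501 to 9378 CPM, against 9208 to 11017 CPM in CON libraries, with 4 of 12 called lower. Tfrc, the transferrin receptor whose mRNA is stable when iron is low, had 320 ± 13.2 CPM in FAC (SD, n = 4) and 485 ± 11.6 CPM in CON (n = 2), a change of -0.60. In DFO Tfrc had 481 ± 4.36 CPM (n = 3), against 485 CPM in CON, a change of -0.01. Tfrc was 1 of 5 iron genes examined. Of the 5, 1 was called higher and 0 lower in DFO against CON, with changes from -0.01 to 0.58. In FAC against CON 1 was called higher and 1 lower, with changes from -0.60 to 0.74.

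The 2 ends of the iron range were also set against each other, in a comparison that shares its libraries with those against CON. Of 53 members 36 were called lower and 1 higher in DFO than in FAC, where 48.2% of all genes were called, 23.5% lower and 24.8% higher. The median was -0.50, against 0.01 for all genes, and 50 of 53 members were negative. The change of all genes ran with transcript length here too. Their medians were -0.14 up to 500 bases, -0.23 up to 1000, -0.13 up to 2000 and 0.14 above. The members had medians of -0.61, -0.58, -0.31 and -0.42 in the same order, with 12 and 27 members in the first 2 classes. In 43 members every DFO library was below every FAC library, against 26.8% of all genes, and in 1 every one was above, against 28.9%. By complex 9 of 12 members of complex III, Cycs, 12 of 23 of complex IV and 14 of 17 of ATP synthase were called lower.

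Cox10 differed by -0.43 (SE 0.08, adjusted p = 0.00244, edgeR), with its highest DFO library at 23.6 CPM and its lowest FAC library at 27.4 CPM. Cox15 had a difference of 0.01 (adjusted p = 0.956, edgeR), which was -0.15 and called lower without FAC replicate 6 (adjusted p = 0.0241, edgeR) and -0.32 with length and GC content in the fit (adjusted p = 0.00461, edgeR). Among the genes of iron-binding proteins Cycs was at -0.45, Uqcrfs1 at -0.44 and Cyc1 at -0.33, all called. Without FAC replicate 6 these were at -0.35, -0.36 and -0.28. Atp5b was at -0.31 (adjusted p = 0.0018, edgeR) and Atp5a1 at -0.37, also called, and at -0.32 and -0.34 without that library. By class the subunits had medians of -0.52 in complex III and -0.62 in complex IV, with 8 of 9 and 10 of 14 called lower. The assembly factors had medians of -0.27 in complex III and -0.28 in complex IV, with 1 of 3 and 2 of 9 called lower, and the difference between the classes was not tested. Among small subunits Uqcrq was at -0.85, Atp5mpl at -0.77, Cox7a2 and Cox6c at -0.72 and Cox6a1 at -0.70, and the assembly factor Uqcc2 at -0.78. All 3 subunit c genes were called, Atp5g3 at -0.79, Atp5g2 at -0.68 and Atp5g1 at -0.62. Without FAC replicate 6 all of these were still called lower, with Uqcrq at -0.62, Atp5mpl at -0.48, Cox7a2 at -0.52, Cox6c at -0.53, Cox6a1 at -0.46, Uqcc2 at -0.56, Atp5g3 at -0.60, Atp5g2 at -0.41 and Atp5g1 at -0.48.

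The muscle isoforms parted in this contrast. Cox6a2 had 8.87, 6.26 and 8.29 CPM in DFO libraries, against 2.61, 4.84, 1.74 and 3.14 CPM in FAC libraries (log2 fold change 1.34, SE 0.27, adjusted p = 0.00339, edgeR), with the overlap with Itgad already given. Cox7a1 had 0.286, 0.336 and 0.114 CPM in DFO libraries, against 0.948, 1.99, 0.419 and 0.799 CPM in FAC libraries (-2.05, SE 0.70, adjusted p = 0.0376, edgeR), levels near the limit of detection. The call of Cox7a1 was lost when any one DFO library or FAC replicate 5 or 8 was left out. Cox7a2l (-0.31, adjusted p = 0.169, edgeR) and Uqcc1 (-0.07) were not called. Leaving out any one DFO library cut the number of members called to between 13 and 17, with the changes of the members named here in the same direction. The share of all genes called in those fits is not given here, so the drop is not read as particular to the members. Without FAC replicate 6 the number was 44, where 62.5% of all genes were called, with a member median of -0.35. In the deposited TPM 40 of 53 members had a lower mean in DFO than in FAC, where 3024 of the genes tested were lower and 9583 higher. Eosinophil markers summed to 18627 to 22014 CPM in DFO libraries, against 57859 to 70002 CPM in FAC libraries, with 10 of 10 called lower. Neutrophil markers summed to 16847 to 18917 CPM in DFO libraries, against 6501 to 9378 CPM in FAC libraries, with 11 of 12 called higher and 1 lower, and 7 of 8 progenitor markers were called higher. The part of these markers in the members' difference was not tested.

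In bone marrow the counts of most members were higher in EOS than in GMP, but a single library carried most of the size. Of 52 members tested 42 had a positive log2 fold change, with a median of 0.93, against 0.01 for all genes. Cox17 and Cox6b2 were called higher and none was called lower. Among all 12214 genes 19.8% were called, 12.98% higher and 6.78% lower, so the count of members is below the background. An unadjusted p under 0.05 was reached by 25 members, where 36.1% of all genes reached it, and DESeq2 called 22 members higher and 2 lower, where it called 18.98% and 12.7% of all genes. In 22 members every EOS library was above every GMP library and in 3 every one was below, against 23.7% and 24.7% of all genes.

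Cox17 had 26.5, 28.1 and 131 CPM in EOS libraries, against 11.4, 11.4 and 11.1 CPM in GMP libraries (log2 fold change 2.45, SE 0.66, adjusted p = 0.0418, edgeR). Cox6b2, a testis isoform, had 15.8, 15.3 and 34.0 CPM in EOS libraries, against 6.76, 5.58 and 6.65 CPM in GMP libraries (1.78, SE 0.40, adjusted p = 0.0247, edgeR). Both were higher in 3 of 3 EOS libraries. Neither call held when any one GMP library was left out, with adjusted p-values from 0.0950 to 0.155, and Cox6b2 was at 0.91 (adjusted p = 0.0821, edgeR) when length and GC content were modelled. Without EOS replicate 3 both were called, at 1.27 for Cox17 and 1.29 for Cox6b2.

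Other small subunits had an uneven pattern of the same kind. Cox6c had 56.6, 110.4 and 651 CPM in EOS libraries, against 47.2, 43.2 and 55.5 CPM in GMP libraries (log2 fold change 2.49, adjusted p = 0.0878, edgeR). Cox7a2 had 84.8, 163 and 749.7 CPM in EOS libraries, against 69.1, 57.2 and 78.8 CPM in GMP libraries (2.28, adjusted p = 0.0806, edgeR). Uqcrb had 67.4, 121 and 571 CPM in EOS libraries, against 56.9, 49.8 and 66.3 CPM in GMP libraries (2.13, adjusted p = 0.0923, edgeR). In all 3 genes EOS replicate 3 was several times the others, and replicate 1 was close to GMP. Without replicate 3 the changes were 0.77 for Cox6c, 0.85 for Cox7a2 and 0.70 for Uqcrb. Cox7c (2.33), Atp5k (2.08), Uqcrh (1.77), Cox7a2l (1.03), Cox4i1 (0.88) and Cox6a1 (0.85) were positive and not called. Without replicate 3 they were at 0.71, 0.75, 0.70, 0.66, 0.38 and 0.57 in the same order.

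Several members were flat or lower. Cox10 had 40.3, 28.8 and 1.68 CPM in EOS libraries, against 44.4, 39.5 and 38.8 CPM in GMP libraries (log2 fold change -0.79, SE 0.88, adjusted p = 0.553, edgeR), and was nearly lost from EOS replicate 3, without which its change was -0.25. Atp5b had 1487, 1727 and 1445 CPM in EOS libraries, against 1942, 1670.2 and 2068 CPM in GMP libraries (-0.29, adjusted p = 0.277, edgeR), groups that overlap. Atp5a1 was at -0.27, Uqcc1 at -0.53 and Cox15 at -0.36, none called. Cycs had 208, 327 and 876 CPM in EOS libraries, against 311, 284 and 327 CPM in GMP libraries (0.61, adjusted p = 0.414, edgeR), and was at -0.21 without EOS replicate 3.

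The change ran with transcript length, in the members and in all genes alike. Members with transcripts of at most 500 bases had a median log2 fold change of 1.64, against 1.03 for all genes of that length. From 500 to 1000 bases the medians were 0.92 for members and 0.49 for all genes, from 1000 to 2000 bases 0.42 and 0.18, and above 2000 bases 0.07 and -0.22. Cox17, at 2067 bases by the median of its annotated transcripts, had a larger change than that length would give. In EOS replicate 1 its 729 counts gave 162 TPM, where 699 counts of Atp5mpl, of 435 bases, gave 187 TPM. For Cox10, of 2915 bases, 1109 counts gave 21.8 TPM. The deposited TPM thus took a far shorter length for Cox17, and the 2067 bases do not make it an exception. Atp5g1, at 2675.5 bases, had 7091 counts and 639 TPM in that library, which also implies a shorter length. Uqcrc1, at 533 bases, had 19969 counts and 732 TPM, which implies a longer one. The class above 2000 bases, with 6 members, holds Cox17 and Atp5g1, so its member medians are uncertain here and in the BMDE comparisons. Per length the direction was turned: in the deposited TPM 18 of 52 members had a higher mean in EOS and 34 a lower one, and over all genes tested 2284 were higher and 9930 lower. Atp5b had 973 ± 430 TPM in EOS and 2326 ± 57.0 TPM in GMP, and Cox8a 805 ± 4.91 TPM in EOS and 949 ± 74.3 TPM in GMP (SD, n = 3 each). With length and GC content in the fit Cox17 was called higher and Cyc1, at -0.61, and Uqcc1, at -1.03, were called lower, that is 1 member higher and 2 lower, against 10.8% and 8.72% of all genes.

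**Figure D5:**
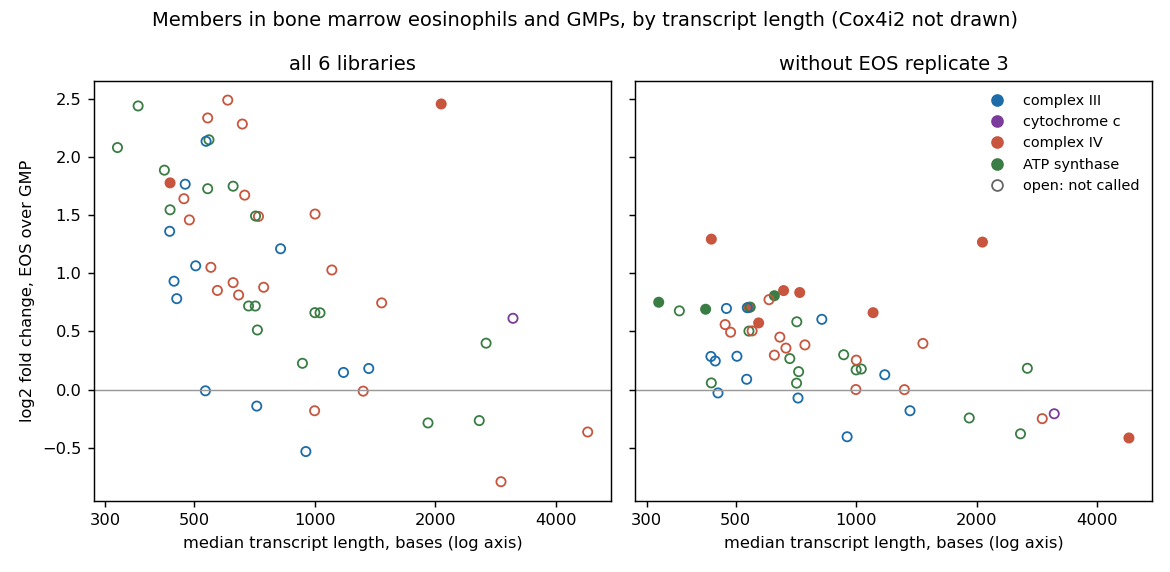
Log2 fold change of EOS over GMP for each member against its median transcript length, on a log axis, with all 6 libraries (left) and without EOS replicate 3 (right), filled where called. On the left Cox6c is the highest, at 2.49, and changes tend to be lower at longer transcripts. Cox17, at 2067 bases, and Atp5g1, at 2675.5, are drawn longer than their deposited TPM implies, and Uqcrc1, at 533, shorter. The changes are smaller on the right. Cox4i2 is not drawn.

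Without EOS replicate 3 the median of the members was 0.30, and 10 members were called higher and 1 lower, where 20.1% of all genes were called higher and 16.4% lower. The 10 were Cox17, Cox6b2, Cox7a2, Cox14, Atp5h, Atp5k, Cox7c, Atp5e, Cox7a2l and Cox6a1, with changes from 0.57 to 1.29, and Cox15 was called lower. Without EOS replicate 1, in turn, 24 members were called higher and none lower, where 15.9% of all genes were called higher and 8.31% lower. With EOS replicate 3 left out and length and GC content in the fit 2 members were called higher and 8 lower, against 15.97% and 26.4% of all genes, with a member median of -0.11 and a median over all genes of -0.22. Those lower were Uqcc1, Cyc1, Uqcrfs1, Uqcrc1, Cox10, Atp5a1, Atp5b and Atp5mpl, with changes from -0.90 to -0.49. The direction over the members as a whole thus depended on the library and on the scaling, while Cox17 and Cox6b2 were positive in each of these fits. The length offset of Cox17 rests on the 2067 bases given above, so its values with offsets are uncertain. The same holds for Atp5g1 and Uqcrc1, whose lengths also differ from those behind the TPM. Subunits of complex I were alike, with 2 of 36 called higher, none lower and a median of 1.32. The neutrophil markers given above were highest in the same library, and their part in the members' change was not tested.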

How the data were processed

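Oligo(dT)-selected RNA was sequenced from NEBNext Ultra libraries, per the labels' protocols, and the strand setting is not given. The submitters' processing notes name RSEM, HISAT2, StringTie 1.3.1, Bowtie2 2.2.8, fastp 0.18.0 and mm10 with no roles. The EOS and GMP table and the BMDE table hold deposited expected counts (estimated reads, not normalized) and deposited TPM. The T2 table holds deposited read counts and deposited FPKM. Genes have Ensembl identifiers in the T2 table and Entrez numbers in the others, and were matched to GENCODE M21.

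The members, gene lists and tests were chosen with earlier results of these data known. After rounding of the expected counts, edgeR 4.0.16 (R 4.3.3) was run separately on each table with filterByExpr, TMM factors and the two-sided quasi-likelihood F test, the BMDE arms in 1 fit, and p-values were adjusted over all genes tested (Benjamini-Hochberg). Log2 fold changes are from the fit with their standard error. Genes tested numbered 12214, 11345 and 12607 in the GMP, T2 and BMDE tables, with 52, 51 and 53 members among them. Named were the members with the largest called changes and a panel of subunits and assembly factors. Transcript length is the median over a gene's transcripts. It can differ from the length behind the deposited TPM, as for Cox17, Atp5g1 and Uqcrc1. Promoter windows are RefSeq's (GRCm38.p6).

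Alternatives were RLE and upper-quartile factors, DESeq2 1.42.0, no filter or a mean of at least 5 CPM, offsets for length and GC content (mgcv 1.9.3), a replicate block, limma 3.58.1 on log2 (FPKM + 0.5), and leaving out each replicate. Fits without FAC replicate 6 in the DFO comparison with CON, and without EOS replicate 3 or FAC replicate 6 together with offsets, were added after seeing the data. The scripts were tested on simulated data. No 2 libraries of a group agreed within sampling noise. Of the 56 members 5 have a pseudogene of their name and 20 overlap an exon of another gene, and reads of such pairs may be shared. Counts carry no molecular identifiers.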

Additional observations from a re-analysis of the deposited data

Results flagged for a closer look

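In groups of 4 libraries the highest or lowest library was set apart where its gap to the nearest other, divided by the range, passed Dixon's critical value, which chance alone passes in about 1 in 20 groups. Of 54 members FAC replicate 6 was set apart as the highest library in 9 and as the lowest in 1, and FAC replicate 7 as the lowest in 1. The member lowest in replicate 6 was Cox4i2, with 1, 0, 1 and 1 counts in FAC replicates 5, 6, 7 and 8. Among the members named here, FAC replicate 6 had 127 CPM of Uqcrq, 80.3 CPM of Atp5mpl and 165 CPM of Cycs, the last of which is also the whole of the cytochrome c class. The complex IV assembly factors summed to 276 CPM in FAC replicate 6. Atp5b had 846 CPM in FAC replicate 7, the lowest of the 4 libraries. That gap is wide only against the narrow range of the others, at 890, 892 and 892 CPM, and small against the level. What sets these libraries apart was not tested.

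The copy Gm10053, which carries the symbol Cycs in the T2 table and was not counted as a member, had 35.1 ± 3.98 CPM in T2 and 8.38 ± 0.416 CPM in resting eosinophils (SD, n = 3 each). Its log2 fold change was 2.07, with a standard error of 0.10 (adjusted p = 1.26e-11, edgeR), and it was higher in 3 of 3 T2 libraries.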

How the results depend on the processing

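The isoforms Cox6a2 and Cox6b2 had too few counts in the T2 table to be tested, and what limited other calls was not tested. Over the log2 fold changes of named members, 112 in all, 1401 of 1586 alternative values kept their direction and side of the threshold, 61 lost a call, 92 gained one and 32 changed sign. The cause of these moves was not tested.

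The number of members called was 33 to 40 for T2 against resting eosinophils under every alternative run. For EOS against GMP it was 2, and 24 with DESeq2 (22 higher, 2 lower), 10 with length and GC offsets without EOS replicate 3, and 0 to 24 with 1 library left out. Of 12214 to 12648 genes tested, these fits called 2413, 3867 and 5364, and 747 to 4623 with 1 library left out. For DFO against CON it was 1, and 3 with DESeq2, 6 with offsets, 41 on the 2 arms alone, 32 without FAC replicate 6 with or without offsets, and 0 to 32 with 1 library left out. For FAC against CON the number of members called was 0, and 15 without FAC replicate 6 with offsets, and 0 to 8 with 1 library left out. Of 12560 to 12816 genes tested, these fits called 761 and 3563, and 76 to 2728 with 1 library left out. For DFO against FAC the number of members called was 37, where 6080 of all 12607 genes were called, and 13 to 44 with 1 library left out. Calls over all genes moved with the fit too, so these numbers alone do not set the members apart. The exact permutation test of the Atp5g1 shares could not pass its threshold under any setting, the smallest possible p being 0.0571. The share in EOS minus that in GMP, -2.94 percentage points, ran from -6.60 to -0.319 with 1 library left out. With the replicate number as a block, 0 members were called for EOS against GMP and 37 for T2 against resting. Same-numbered libraries correlated at 0.01, 0.01 and 0.12 in the first and -0.01, -0.02 and 0.03 in the second table, so the numbers were not taken to pair the samples, and the BMDE arms share no number.

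Among the 112 log2 fold changes counted above, changes of sign were in members near 0, in Cox15 or in EOS. Members outside that count changed sign too. Over all members, the EOS fit with offsets and without replicate 3 had 16 positive and 37 negative changes, against 42 and 10 in the main fit. Uqcrfs1 and Atp5mpl, called lower there at -0.55 and -0.57, were at 0.18 and 1.55 in the main fit. With length and GC offsets the log2 fold change was 0.12 for Cox15 in EOS, -0.094 for Uqcrc2, 0.055 for Cox15 and 0.042 for Atp5g2 in T2, -0.060 for Cyc1 and 0.024 for Cox15 in FAC against CON, and -0.32 for Cox15 and 0.025 for Uqcc1 in DFO against FAC. With offsets and without EOS replicate 3 it was -0.22 for Cox4i1, -0.032 for Cox6a1, -0.11 for Cycs and -0.012 for Atp5g1, and with offsets and without FAC replicate 6 it was -0.014 for Cyc1 and 0.088 for Cox15 in FAC against CON and -0.38 for Cox15 in DFO against FAC. In T2 it was -0.019 for Uqcrfs1 and -0.082 for Uqcrc2 with upper-quartile factors (median of all genes -0.13), -0.12 for Uqcrfs1, -0.18 for Uqcrc2 and -0.035 for Cox6c with limma on FPKM, -0.036 for Uqcrc2 with a mean of at least 5 CPM, and 0.017 for Cox15 with no filter. With 1 library left out, Cycs ran from -0.21 to 0.91 in EOS, Cox15 from -0.055 to 0.051 and Atp5g2 from -0.12 to 0.022 in T2, Cox7a2l from -0.034 to 0.11 in DFO against CON, and Cox15 from -0.15 to 0.070 in DFO against FAC. Cox15 in DFO against FAC was at -6e-04 with RLE factors and at -4e-04 with DESeq2.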
